A study of Mus musculus with 2 samples.

Results

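Kinesins are the motor proteins that walk along microtubules on the energy of ATP, and their genes were described here by the open chromatin at their promoters and along their bodies in the mouse frontal cortex. A gene was counted as a kinesin gene when its symbol in the GENCODE annotation of protein-coding genes was Kif or Kifc followed by a number, which gave 43 of 21938 genes. The rule split them into 11 transport kinesins (the Kif1, Kif3, Kif5 and Kif21 genes), 6 mitotic kinesins (Kif2c, Kif4, Kif11, Kif20a, Kif20b and Kif23) and 26 other genes. One of the 26, Kif1bp, fits the rule by its symbol but encodes a protein that binds a kinesin and is not a motor. A symbol rule also misses Cenpe, a mitotic kinesin by function, and Kifap3, a kinesin-associated subunit, which are given below with the partner genes.

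The assay was DNase-seq, which sequences the ends left where DNase I cuts DNA that nucleosomes do not shield. The study had 1 group of 2 libraries of frontal cortex tissue, taken from female mice of strain B6CASTF1/J, the F1 cross of a C57BL/6J and a CAST/EiJ parent, at 25 days of age. The labels number the libraries as biological replicates 1 and 2 from separate biosamples but give both the same donor identifier, so the spread between them may be smaller than that between animals. With no second group there was no condition to compare and no test over samples, and the genes were set beside all protein-coding genes as a description.

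In neurons, most of what an axon or a synapse needs is made in the cell body and carried outward by kinesins, while dynein carries cargo back. Kinesin-1 (Kif5), kinesin-2 (Kif3) and kinesin-3 (Kif1) motors pull vesicles, mitochondria and other cargo. Another set of kinesins builds the spindle, moves chromosomes and completes cytokinesis, and is best known from dividing cells. At the age studied most cortical neurons have left the cell cycle, while glial cells still divide.

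The authors called 85603 peaks in replicate 1 and 87847 in replicate 2, with median widths of 200 and 190 bp. The value of a peak is the signal that the authors deposited with it, normalized to read depth on a scale that is not stated, and its median was 0.627 and 0.679. The sequencing depth is unknown from these files. Promoter peaks of the marker genes were checked against the labelled tissue. All 6 markers of neurons and all 5 of cortical excitatory neurons had one in both libraries, as did 3 of 4 markers of astrocytes and 3 of 4 of oligodendrocytes. None of 4 genes of tissues outside the brain (Alb, Apoa1, Prm1 and Cd3e) had one in either library. Of 4 genes of dividing cells (Mki67, Top2a, Ccnb1 and Cdk1) all 4 had one, and of 4 genes of ciliated ependyma 2 had one. Over all protein-coding genes 61.5% had one in both libraries. The median value was 2.25 for dividing cells and for neurons, 1.56 for cortical excitatory neurons, 1.41 for astrocytes and 0.948 for oligodendrocytes. It was highest for ciliated ependyma, at 6.90 over the 2 genes with a peak, so the values did not rank the lists by the labelled tissue. In whole tissue, an open region in fewer cells and a less open region in every cell cannot be told apart, and no cell type can be assigned to any peak described here.

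Most kinesin promoters were open. A promoter peak, one that reached to within 1 kb of an annotated transcription start site (TSS) of the gene, was present in both libraries at 39 of 43 kinesin genes (90.7%), against 61.5% of all protein-coding genes. All 11 transport kinesins and all 6 mitotic kinesins had one, as did 22 of the 26 other genes. In the authors' shorter peak lists, which hold 47874 and 50077 peaks, 36 kinesin genes kept a promoter peak in each library, against 55.6% of all genes. The 3 genes lost in the shorter lists were the transport kinesin Kif5a and the weak promoters of Kif7 and Kif27. The median promoter value, taken as the value of a gene's strongest promoter peak averaged over the libraries, was 2.81 over the 39 kinesin genes and 2.34 over all genes with promoter peaks in both, whose middle range (first to last quartile) ran from 1.28 to 3.65. Of the 39 kinesin genes, 27 lay above the median of all genes. The median number of annotated TSSs was 6 at kinesin genes and 3 over all genes. A gene with more TSSs has more places where a promoter peak can count, and its strongest peak is taken over all of them. With 1 TSS per gene, 37 of 43 kinesin genes kept such a peak in each library. The share of all genes was not set beside this count, so the part of either difference due to TSS number was not tested.

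The share of open kinesin promoters was read beside their CpG content, since promoters rich in CpG are mostly open in any tissue. The 1 kb around the 5′ end held a median of 62 CpG at kinesin genes and 41 over all genes, counted there whichever start site had the peak. When all genes were placed in 10 bins by this count, the 29 kinesin genes in the 4 bins with the most CpG (54 or more) all had promoter peaks in both libraries, where 91.1% to 95.3% of all genes did. Of the 7 kinesin genes in the sixth bin (42 to 53 CpG), 6 had one, against 87.6% of all genes. The other 7 kinesin genes, with 10 to 41 CpG, were in bins where 26.4% to 71.1% of all genes had one, and 4 of them did. Within bins of like CpG content the kinesin genes thus had promoter peaks at rates near those of other genes.

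**Figure D1:**
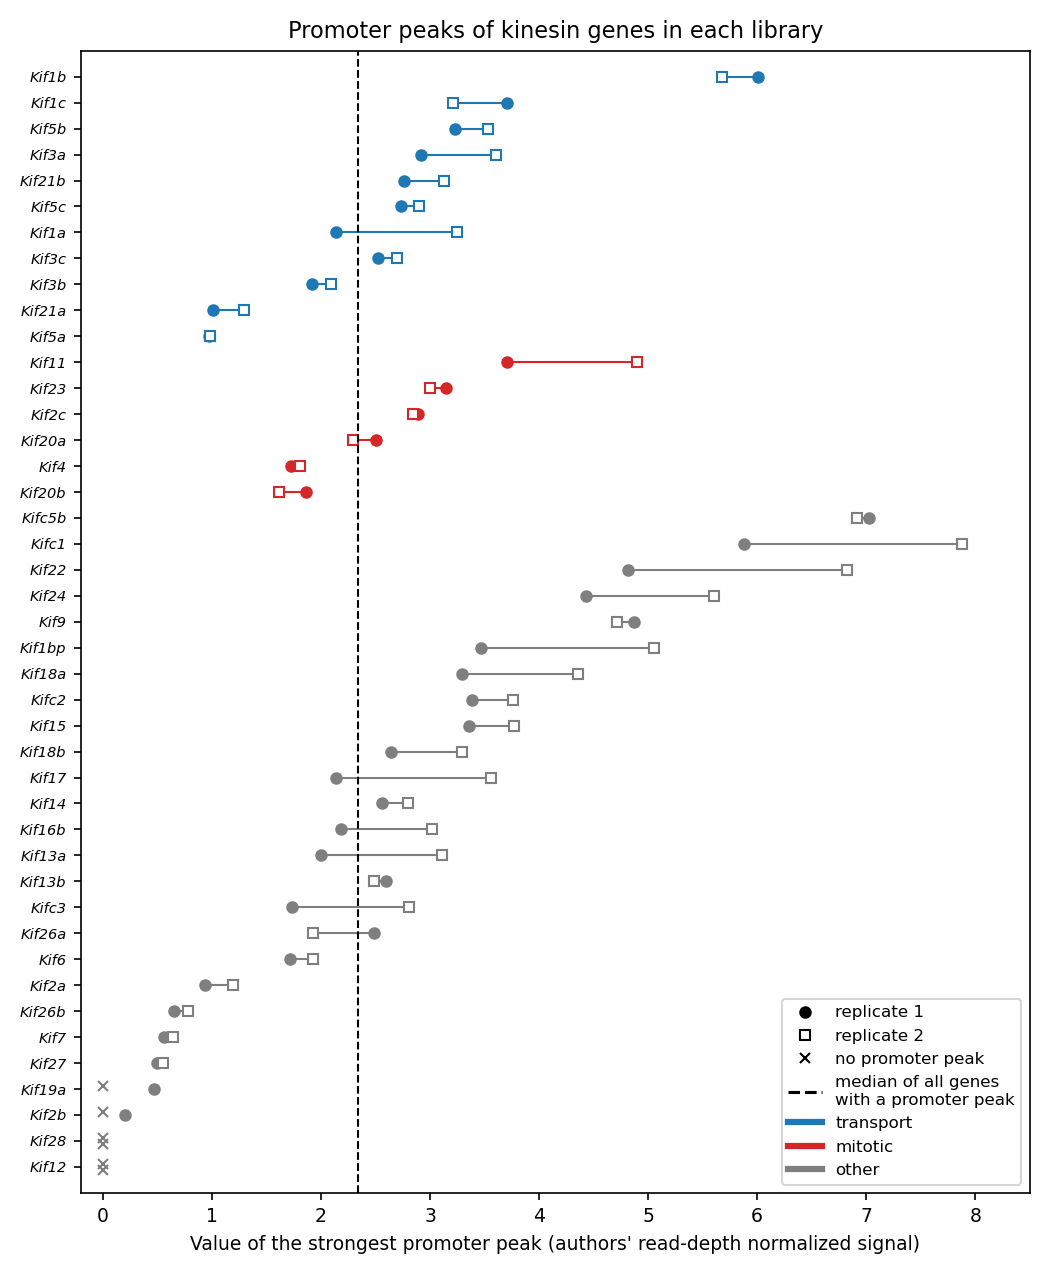
Value of the strongest promoter peak (authors' read-depth normalized signal, horizontal axis) of each kinesin gene in replicate 1 (filled circles) and replicate 2 (open squares), grouped as transport (blue), mitotic (red) and other (grey) and sorted by the mean. Crosses at 0 mark a library with no promoter peak, as at Kif12 and Kif28 in both, and the dashed line is the median of all genes that have a peak in both, 2.34.

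Among the transport kinesins, the 3 heavy chains of kinesin-1, the main motor of fast axonal transport, differed in their promoters. Kif5b, which is expressed in most cell types, had values of 3.23 in replicate 1 and 3.53 in replicate 2 (3.38 ± 0.218, SD, n = 2). Kif5c, a form enriched in neurons, had 2.73 and 2.89 (2.81 ± 0.117, SD, n = 2). Kif5a, the other neuronal form, mutated in hereditary spastic paraplegia, had 0.972 and 0.982 (0.977 ± 0.00724, SD, n = 2), the lowest of the 11 transport kinesins. The libraries of Kif5a lay below those of Kif5b and Kif5c with no overlap. The open region of Kif5b lay at an internal start site, 613.5 bp downstream of the annotated 5′ end of the gene.

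Kif1b had the strongest promoter of the transport kinesins, with values of 6.01 and 5.68 (5.84 ± 0.238, SD, n = 2), higher than 95.6% of genes with a promoter peak. It encodes a kinesin-3 motor that carries mitochondria and the precursors of synaptic vesicles. Kif1a, the neuronal motor for synaptic vesicle precursors and dense core vesicles, had 2.14 and 3.24 (2.69 ± 0.783, SD, n = 2), the widest spread among the transport kinesins, so that replicate 1 lay below the median of all genes and replicate 2 above it. Kif1c, a motor of dense core vesicles that many tissues express, had 3.71 and 3.21. Both libraries of Kif1b lay above every value of Kif1a and Kif1c.

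The kinesin-2 genes Kif3a and Kif3b encode the motor subunits of the heterotrimer that also moves cargo along cilia. Their promoters were at 2.92 and 3.61 for Kif3a and at 1.92 and 2.09 for Kif3b, without overlap between the genes. Kif3c, which encodes an alternative partner of the Kif3a protein and is enriched in neurons, was at 2.53 and 2.70. The libraries of the 3 genes did not overlap, in the order Kif3a, Kif3c, Kif3b. The 2 kinesin-4 genes of the class showed the same kind of gap. Kif21b, a motor that also restrains microtubule growth, had 2.76 and 3.12, and Kif21a, mutated in congenital fibrosis of the eye muscles, had 1.01 and 1.29. Kif21a and Kif5a were the only transport kinesins below the lowest mitotic kinesin.

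In the order of mean values, Kif1b stood apart from the next, Kif1c (3.46 ± 0.348, SD, n = 2). From Kif1c down through Kif5b, Kif3a, Kif21b, Kif5c, Kif1a and Kif3c, the libraries of each gene overlapped those of the next. Neighbours in this order were thus not separated when the libraries were pooled. Within each library, Kif3a was above Kif21b and Kif21b above Kif5c, while the other neighbours changed order between the libraries. Farther apart in this order, both libraries of Kif3c lay below both of Kif1c, Kif5b, Kif3a, Kif21b and Kif5c. The gap to Kif5c was narrow, 2.70 against 2.73. With 2 libraries per gene, a lack of overlap here and elsewhere only describes these values, and no difference between genes was tested. Kif3b at 2.01 ± 0.119 (SD, n = 2) had both libraries below the 2.14 of Kif1a, the lowest library of the genes above it. A further gap separated Kif3b from Kif21a and Kif5a.

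The promoters of the mitotic kinesins were open to a like degree. Kif11, the motor that pushes spindle poles apart, had the highest values of the 6, at 3.71 and 4.90 (4.30 ± 0.843, SD, n = 2). Kif23, a subunit of the centralspindlin complex of cytokinesis, had 3.15 and 2.998, and Kif2c, which depolymerises microtubules at centromeres, had 2.89 and 2.84. Kif20a, a motor of late mitosis that brings the chromosomal passenger complex to the midzone, had 2.503 and 2.30, although its strongest promoter peaks in the libraries did not overlap each other. Kif4, a chromokinesin on the X chromosome, had 1.72 and 1.80, and Kif20b, which acts in cytokinesis, had 1.86 and 1.61. Kif4 and Kif20b could not be ordered, since their libraries overlapped, and both lay below the other 4.

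Transport and mitotic kinesins were not separated by their promoter values. The median over the 11 transport kinesins was 2.73 in replicate 1 and 3.12 in replicate 2, and that over the 6 mitotic kinesins was 2.70 and 2.57. The difference of the medians, transport minus mitotic, was 0.0311 in replicate 1 and 0.554 in replicate 2. Only Kif1b lay above the highest mitotic kinesin, Kif11, and Kif5a and Kif21a lay below the lowest, Kif20b, so the range of the mitotic kinesins fell within that of the transport kinesins. Of the transport kinesins 8 of 11 and of the mitotic kinesins 4 of 6 exceeded the median of all genes. Replicate 2 was the higher library at 9 of 11 transport and 2 of 6 mitotic kinesins, and at 9284 of 13489 protein-coding genes, with a median log2 ratio of replicate 2 to replicate 1 of 0.12 at transport kinesins, -0.05 at mitotic kinesins and 0.15 over all genes (SD 0.31 over genes). The difference between the classes thus changed with the library.

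The highest values of all kinesin genes belonged to other members. Kifc5b had 7.03 and 6.91 (6.97 ± 0.0809, SD, n = 2) and Kifc1, a minus-end directed motor that bundles spindle microtubules, had 5.88 and 7.87 (6.88 ± 1.41, SD, n = 2). Kif22, a chromokinesin, was at 4.81 and 6.82, Kif24, a depolymerase at centrioles, at 4.43 and 5.61, Kif9, a motor of motile cilia, at 4.87 and 4.72, and Kif1bp at 3.47 and 5.05. These 6 genes were the top of the other members by the mean, and all 12 of their library values lay above the median of all genes. By family, the 4 kinesin-14 genes (Kifc1, Kifc2, Kifc3 and Kifc5b) had a median of 5.23, and the 5 kinesin-4 genes (Kif4, Kif7, Kif21a, Kif21b and Kif27) one of 1.15, the highest and lowest medians among families with at least 3 members. The kinesin-14 genes ran from 2.27 to 6.97 and the kinesin-4 genes from 0.523 to 2.94. The kinesin-14 median leans on Kifc1 and Kifc5b, whose near-identical promoters are described next.

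The region of Kifc1 was the only one of 39 with a near-identical copy elsewhere (at least 90% identity over at least 80% of its length). The copy, 90.2% identical on chromosome 17 from 26916754 to 26917111, is the promoter of Kifc5b itself. An alignment of both open regions, with the unaligned ends left out, had 330 columns, of which 296 were identical, 16 mismatched and 18 gapped. Reads from one may be placed at the other where they do not span a difference, so the separate values of both genes are uncertain. The 240 alignment columns nearest the start sites are shown, with the positions that differ in capitals. By the reference sequence, these are the only places within them where a read tells the genes apart. Variants of the CAST/EiJ parent were not considered. Both are read in the direction of transcription, Kifc1 from chr17:33890672-33890911 on the minus strand and Kifc5b from chr17:26916851-26917080 on the plus strand of GRCm38, the build of mm10.
Kifc1: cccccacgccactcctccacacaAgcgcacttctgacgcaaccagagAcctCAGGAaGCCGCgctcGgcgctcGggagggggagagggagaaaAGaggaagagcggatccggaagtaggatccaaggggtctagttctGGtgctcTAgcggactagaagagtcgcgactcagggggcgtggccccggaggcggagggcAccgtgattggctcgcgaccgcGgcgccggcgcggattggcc
Kifc5b: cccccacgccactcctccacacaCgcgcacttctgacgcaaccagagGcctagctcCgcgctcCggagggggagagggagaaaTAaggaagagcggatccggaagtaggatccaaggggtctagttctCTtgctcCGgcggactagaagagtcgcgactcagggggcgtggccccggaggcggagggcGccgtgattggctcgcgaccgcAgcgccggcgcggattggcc
Long stretches of both promoters had no capital. The pair of 5-base runs of capitals in Kifc1, split by 1 small letter, are bases with no counterpart in Kifc5b in the alignment.

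The other 4 kinesin genes lacked a promoter peak in at least 1 library. Kif12 and Kif28 had none in either library and no position there with a listed false discovery rate (FDR) of the cut rate, which the authors list up to 0.05. Kif19a, a depolymerase that limits the length of cilia, had one in replicate 1 only, with a value of 0.469 and 482 listed positions, and Kif2b, a spindle depolymerase, had one in replicate 1 only, with a value of 0.198 and 25 listed positions. Neither Kif19a nor Kif2b had a listed position at the promoter in replicate 2. Of the 7571 protein-coding genes with no promoter peak in either library, 2.05% in replicate 1 and 1.70% in replicate 2 had a listed position. Next above these genes stood the ciliary genes Kif27, at 0.492 and 0.554, and Kif7, a part of Hedgehog signalling, at 0.559 and 0.640, which were chosen for mention after their values were seen.

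A kinesin promoter was not always its own. At 10 of 39 kinesin genes (25.6%) the open region also lay within 1 kb of the start of a further protein-coding gene, against 20.0% of genes with such a region. The pairs were Kif1c with Inca1 among the transport kinesins, Kif4 with Pdzd11 and Kif20a with Brd8 among the mitotic ones, and Kif9 with Klhl18, Kif15 with 1110059G10Rik, Kif17 with Sh2d5, Kif18a with Mettl15, Kif22 with Maz, Kif24 with Nudt2 and Kifc2 with Cyhr1. In 8 of the 10 pairs the genes run in opposite directions. The start site of the other gene was the closer one in 9 of 10, all but Kifc2. At Kif24 the distances were nearly equal, 133.5 bp to its own start and 130.5 bp to that of Nudt2. Neither count was made over all genes with such a region, so neither is a result about kinesin genes. At Kif1c the region centre was 347.5 bp from the Kif1c start and 45.5 bp from that of Inca1, and at Kif4 it was 263.5 bp from the Kif4 start and 62.5 bp from that of Pdzd11. At Kif20a it was 22.5 bp and 10.5 bp. The strong region of Kif22 lay 15060.5 bp downstream of its annotated 5′ end and past the 3′ end of the gene. Its centre was 705.5 bp from the nearest annotated start site of Kif22 and 373.5 bp from that of Maz, which encodes a zinc finger factor. With only the annotated 5′ end of each gene as its start, the promoter value of Kif22 was 1.98 in place of 5.82. Of the 6 strongest other members, Kif9, Kif22 and Kif24 were among these pairs. The values of these genes cannot be told apart from those of their neighbours.

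Short sequence motifs were counted on both strands in the 200 bp centred on the open region of the 39 kinesin genes and of 13398 protein-coding genes. The letters searched were GGGCGG (SP/KLF factors), CCGGAAG (ETS), GCATGCG (NRF1), TGACGTCA (CRE), CCAAT (NFY), TTTGAA (the cell cycle genes homology region, CHR), ATGGCGG (YY1), CACGTG (E-box), TGANTCA (AP-1) and, for a core of the CTCF motif, any of the letters AGGGGGC, the letters AGGTGGC, the letters AGAGGGC and the letters AGATGGC. A match is only a run of letters and not a bound site. The SP/KLF and CTCF letters can overlap, as they do at Kif1b, Kif1c, Kif13b, Kif21b and Kif24. The windows had a median of 19 CpG at kinesin genes and 17 over all genes.

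The CHR is the site through which repressor and activator complexes time late cell cycle genes. It was found in 3 of 6 mitotic kinesin windows (Kif4, Kif20b and Kif23) and in 0 of 11 transport windows. The Kif4 match lay 349.5 bp downstream of that gene's nearest start, in a window centred closer to the start of Pdzd11. Over all kinesin genes the CHR was in 6 of 39 windows (15.4%), against 5.02% over all genes. Besides the mitotic ones these were Kif14, Kif15 and Kif18b, which also act in cell division. Other members with such roles had no match, among them the chromokinesin Kif22 and the spindle motor Kifc1. Within 25 bp of the gene's own start, a limit chosen after the positions were seen, the CHR was in 5 of 39 (12.8%). These were all of the 6 but Kif4, and the share over all genes was 1.22%. In Kif20b 2 matches stood side by side, centred 6.5 and 12.5 bp downstream of the start, and in Kif23 the match was centred 20.5 bp upstream. None of the 7 CHR matches lay wholly in a footprint, a stretch protected from cutting within an open region, in both libraries, where 3.26% of those over all genes did.

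The promoter stretches of Kif23 and Kif20b are shown to place the CHR, whose letters are in capitals, beside the start sites. They are chr9:61946745-61946960 on the minus strand for Kif23 and chr19:34922181-34922390 on the plus strand for Kif20b, on GRCm38, each read in the direction of transcription.
Kif23: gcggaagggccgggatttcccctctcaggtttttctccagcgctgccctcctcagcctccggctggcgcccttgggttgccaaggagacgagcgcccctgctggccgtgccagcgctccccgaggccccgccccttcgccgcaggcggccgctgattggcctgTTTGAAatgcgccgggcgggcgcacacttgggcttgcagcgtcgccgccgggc
Kif20b: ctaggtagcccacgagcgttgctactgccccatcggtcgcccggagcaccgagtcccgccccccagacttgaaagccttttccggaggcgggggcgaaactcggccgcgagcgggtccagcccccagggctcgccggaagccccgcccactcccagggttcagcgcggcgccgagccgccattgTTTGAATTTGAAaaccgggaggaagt
In Kif23 the letters follow a CCAAT box on the opposite strand, and in Kif20b they follow YY1 letters on the opposite strand.

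Counts of the other motifs rest on equally few windows. Those of Kif1c, Kif4 and Kif20a were centred closer to the start of another gene than to their own. SP/KLF letters were in 9 of 11 transport windows, 3 of 6 mitotic windows and 69.2% of kinesin windows, against 58.3% of all genes. ETS letters were in 0 of 11 transport windows, in 3 of 6 mitotic windows (Kif2c, Kif4 and Kif20b) and in 23.1% of kinesin windows, against 15.6% of all genes. CCAAT was in 5 of 11 transport and 2 of 6 mitotic windows, and the CTCF core in 5 of 11 (Kif1b, Kif1c, Kif3a, Kif21a and Kif21b) and 1 of 6. Over all kinesin genes these were in 16 and 13 of 39 windows, against 32.1% and 30.4% of all genes. NRF1 letters were found among transport kinesins at Kif3a, the CRE at Kif5c and, among mitotic kinesins, YY1 letters at Kif11 and Kif20b. Each of these 3 motifs was in 5.13% of kinesin windows, against 6.50%, 3.66% and 6.93% of all genes, shares near the background. AP-1 letters were in 0 of 39 windows, against 2.83% of all genes, and the E-box was in 1 of 39 (2.56%), against 8.56% of all genes.

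**Figure D2:**
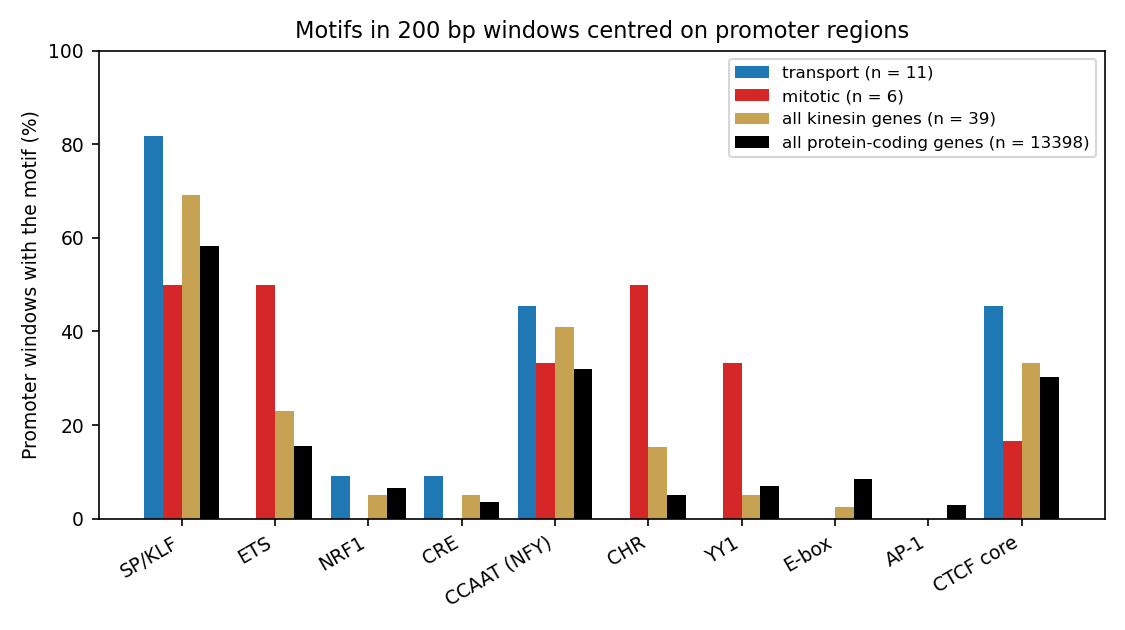
Share of 200 bp promoter windows (vertical axis, percent) that hold each motif on either strand, for transport kinesins (blue, n = 11), mitotic kinesins (red, n = 6), all kinesin genes (tan, n = 39) and all protein-coding genes (black, n = 13398). ETS and CHR letters are in 3 of 6 mitotic and 0 of 11 transport windows, and SP/KLF letters are the most common in every set, tied with ETS and CHR in the mitotic set.

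The numbers of footprints at kinesin promoters were near those elsewhere. Their median number per open region was 4 and 5 in replicates 1 and 2 at transport kinesins, 4 and 4.5 at mitotic kinesins, and 5 and 4 over all genes. Of 54 SP/KLF matches at kinesin genes 17 (31.5%) lay wholly in a footprint of both libraries, against 32.2% of the matches over all genes, and of 24 CCAAT matches 2 (8.33%), against 8.39%. For the CTCF core it was 7 of 16 matches, against 30.4%, and for ETS 0 of 9, against 10.3%. The 7 include those of the near-identical Kifc1 and Kifc5b promoters, and matches that overlap SP/KLF letters at Kif1b, Kif1c and Kif24. The promoters of Kif1b, the strongest of the transport kinesins, and of the neuronal Kif5c are shown with the footprint bases that both libraries share in capitals. They are chr4:149307701-149307980 on the minus strand for Kif1b and chr2:49619161-49619327 on the plus strand for Kif5c, on GRCm38, read in the direction of transcription.
Kif1b: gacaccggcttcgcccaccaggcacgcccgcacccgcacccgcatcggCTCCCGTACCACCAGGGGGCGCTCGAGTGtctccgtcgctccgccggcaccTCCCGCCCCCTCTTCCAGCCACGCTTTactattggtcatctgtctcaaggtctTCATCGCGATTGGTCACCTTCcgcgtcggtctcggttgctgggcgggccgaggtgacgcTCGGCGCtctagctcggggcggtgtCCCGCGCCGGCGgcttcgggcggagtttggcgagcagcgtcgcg
Kif5c: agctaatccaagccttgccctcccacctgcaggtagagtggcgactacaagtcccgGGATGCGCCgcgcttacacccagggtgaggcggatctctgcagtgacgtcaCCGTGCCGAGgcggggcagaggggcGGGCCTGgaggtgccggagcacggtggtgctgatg
In Kif1b the first block of capitals spans a CTCF core on the strand shown, the second spans SP/KLF and CTCF core letters on the opposite strand, and the third a CCAAT box on the opposite strand. In Kif5c the CRE letters lay in a footprint of replicate 1 only and so are in small letters.

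Peaks along the genes were counted next. The number of peaks in the gene and 10 kb on either side had a median of 5 at transport kinesins (6 in replicate 1 and 4 in replicate 2), 3 at mitotic kinesins (3 in each) and 3 over all genes. In the shorter peak lists the order of the classes turned, with medians of 2 at transport and 3 at mitotic kinesins. Kinesin genes are long, with a median of 42.0 kb for transport and 38.2 kb for mitotic kinesins against 17.4 kb for all genes. Per 100 kb of gene and flanks the median was 5.13 peaks at transport kinesins, 6.22 at mitotic kinesins and 5.49 over all genes, so the order of the classes by density was the opposite of that by number.

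Among transport kinesins the peaks were most numerous at Kif1a, with 9 in replicate 1 and 11 in replicate 2, Kif5c, with 9 and 9, and Kif21b, with 7 and 11. Kif1b had 7 and 7, and Kif3b had the fewest, 2 and 1. The long gene Kif21a, with 5 and 2, had fewer than the shorter Kif21b in both libraries. No mitotic kinesin had more than 4 in a library, although Kif4 is 101 kb long. Of the other members, the early endosome motor Kif16b had 14 and 16, Kif6 had 13 and 15, Kif26b, whose motor domain lacks ATPase activity, had 14 and 10, the dendritic motor Kif17 had 11 and 13, and Kif13a had 12 and 8. Kif6, Kif16b, Kif26b and Kif13a are the 4 longest kinesin genes, while Kif17 is 51.5 kb long.

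**Figure D3:**
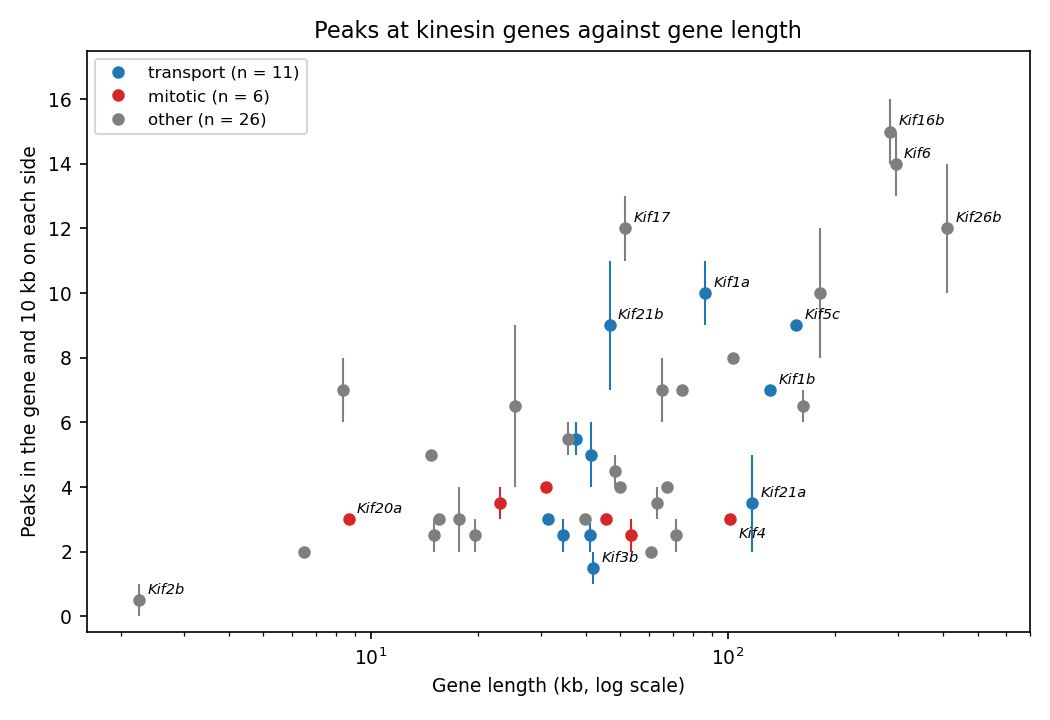
Number of peaks in each kinesin gene and 10 kb on either side (vertical axis) against gene length (kb, horizontal log axis), with points at the mean of the libraries and bars from the lower to the higher library. The mitotic kinesins (red) lie between 2.5 and 4 at every length, and Kif1a, Kif5c and Kif21b are the highest of the transport kinesins (blue).

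Regions called in both libraries and away from every protein-coding TSS were then taken as distal. There were 83 at kinesin genes, and 29 of 43 members (67.4%) had at least 1, against 50.9% of all protein-coding genes, which are shorter. Of these, 48 lay in introns, 11 in exons, 17 upstream and 7 downstream of the gene. Their median value was 0.823, against 0.804 over 23222 regions at all genes. Transport kinesins held 20, at 8 of 11 genes, with a median of 0.867, and mitotic kinesins held 5, at 4 of 6 genes, with a median of 0.788. Kif5c and Kif21b had 5 each and Kif1a had 4, and Kif3b, Kif5b and Kif21a had 0.

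The strongest distal region lay in the flank upstream of Kif16b (chr2:142902981-142903220), at -1.57 kb from its 5′ end, with values of 2.68 and 3.96. A promoter width of 2.5 kb on either side counts this region as the Kif16b promoter peak. The next members by their strongest region were Kif6 with 2.31 and 2.28, in an intron 284 kb from the 5′ end (chr17:49898901-49899100), Kif3c with 2.03 and 2.49, in the upstream flank, Kif21b with 1.85 and 2.20, in an intron 9.05 kb downstream of the start, and Kifc1 with 1.40 and 2.56, in the downstream flank (chr17:33865401-33865720). The regions of Kif16b and Kif6 were stronger in each library than their promoters, which were at 2.18 and 3.02 for Kif16b and at 1.71 and 1.93 for Kif6, and that of Kif3c was weaker than its promoter in each. Among mitotic kinesins the strongest lay in the flank upstream of Kif2c, with 1.80 and 1.92, and the other 4 were lower, between 0.497 and 1.20 in the libraries. CTCF core letters were in 10 of 20 distal windows of transport kinesins and in 36.1% of the 83, against 38.8% of all, and AP-1 letters, absent from the kinesin promoters, were in 10 of the 83 and 12.01% of all.

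**Figure D4:**
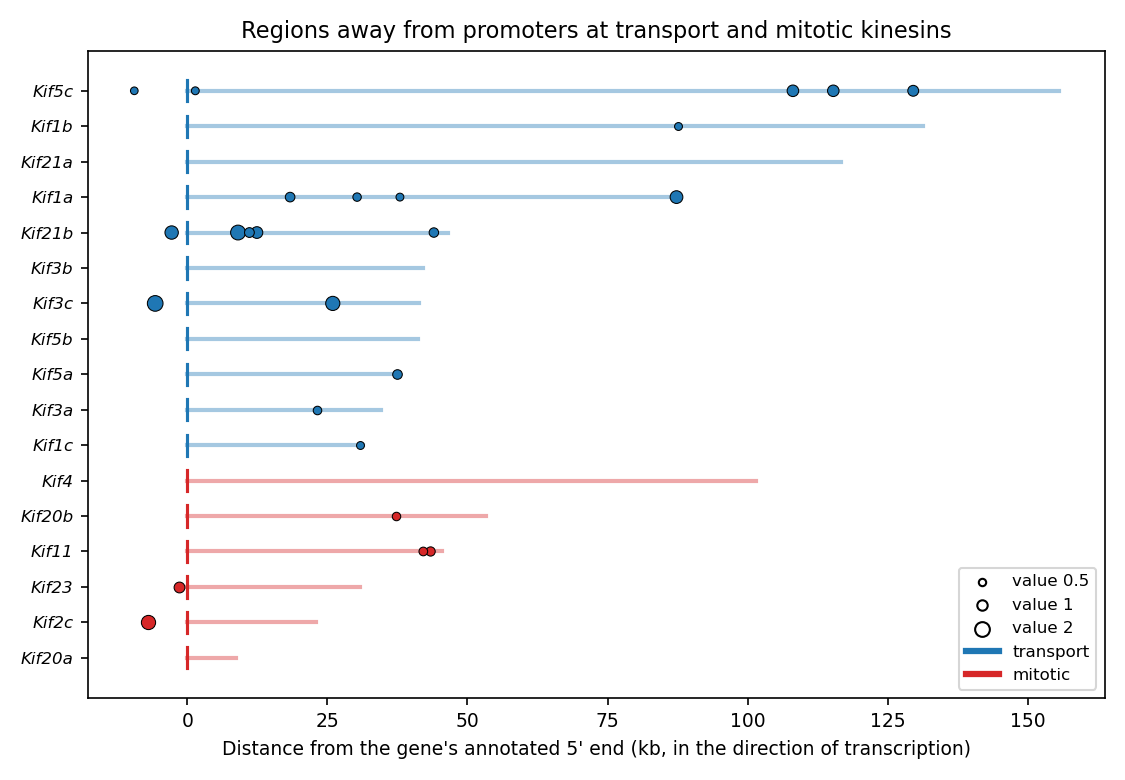
Distal regions called in both libraries (circles, area in proportion to the mean value) at transport (blue) and mitotic (red) kinesins, by distance from the annotated 5′ end (kb, horizontal axis), with each gene as a pale line from its start. Kif5c and Kif21b have 5 each, 3 of those of Kif21b from 9.05 to 12.4 kb and 3 of those of Kif5c past 100 kb, and Kif3b, Kif5b, Kif21a, Kif4 and Kif20a have none.

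The strongest distal regions of the transport class, at Kif3c and Kif21b, are shown with shared footprint bases in capitals. They are chr12:3359321-3359480 for Kif3c and chr1:136140301-136140580 for Kif21b, both on the plus strand of GRCm38.
Kif3c: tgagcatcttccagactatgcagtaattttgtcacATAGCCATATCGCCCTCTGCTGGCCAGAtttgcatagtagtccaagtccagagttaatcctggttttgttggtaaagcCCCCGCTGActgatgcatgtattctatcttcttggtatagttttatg
Kif21b: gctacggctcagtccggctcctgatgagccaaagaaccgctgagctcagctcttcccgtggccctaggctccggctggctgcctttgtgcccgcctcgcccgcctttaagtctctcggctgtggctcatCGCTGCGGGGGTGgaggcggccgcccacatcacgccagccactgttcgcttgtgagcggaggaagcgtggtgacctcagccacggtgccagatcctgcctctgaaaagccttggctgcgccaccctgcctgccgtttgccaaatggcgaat
The Kif3c region has its longer block of footprint bases over CTCF core letters on the opposite strand. The Kif21b region has a single shared footprint.

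Most partners of the motors had promoter peaks too, where 61.5% of all protein-coding genes had one in both libraries. Neither the CpG content nor the number of start sites of the partners was compared. In the 4 bins with the most CpG, 91.1% to 95.3% of all genes had one. Of 26 genes of cargo adaptors and kinesin light chains, 24 had a promoter peak in both libraries, with a median value of 2.23, and the highest were the light chain gene Klc4 at 5.05 and 5.86, Kifap3, the adaptor of the kinesin-2 heterotrimer, at 4.22 and 5.76, and Ppfia1, which encodes a liprin, at 4.50 and 4.85. Mapk8ip1, which encodes the scaffold JIP, had none, and the light chain gene Klc3 had one in replicate 2 only, at 0.737. All 21 genes of dynein and dynactin, the motor of the opposite direction, had one, with a median of 3.32, led by Ndel1 at 5.91 and 6.98, Dynlrb1 at 6.29 and 6.28, and Dynll1 at 6.86 and 5.64. All 19 genes of spindle and cytokinesis partners, which include the 4 markers of dividing cells, had one, with a median of 2.63, led by Ect2 at 5.71 and 6.80, Prc1 at 4.76 and 5.90, and Top2a at 5.28 and 3.80. Cenpe, the centromeric kinesin in the last list, was at 2.16 and 1.74. The medians of the transport kinesins (2.81) and of the mitotic kinesins (2.63) thus lay among those of the lists of their partners.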

How the data were processed

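DNase-seq peaks, footprints and cut-rate tables of 2 libraries on mm10 were used as deposited. Per the deposited text files, the authors derived them from each library's own alignment, without pooling. The peak value is the authors' read-depth normalized signal, on an unstated scale; the values of each library are whole multiples of a step (0.00565 and 0.00571; 100% within 0.1 of a step). The deposited false discovery rate is a q-value per position, listed up to 0.05, and the deposited footprint lists carry the constant 0.01 in the p-value column, of which only positions were used. The sources used here do not give the aligner, the caller or the depth.

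The longer peak list of each library was joined to GENCODE M21 on GRCm38.p6 with Python 3.11.15, numpy 2.4.6, pandas 2.3.3 and pysam 0.24.0, with overlaps of at least 1 bp. Copies were searched with BLAST 2.17.0. The joins were tested on simulated data. Genes named were all transport and mitotic kinesins, the 6 other members with the highest promoter value, those with a promoter peak in 1 or no library, the 5 with the most peaks, the 5 with the strongest distal region and, per partner list, up to 3 highest and up to 3 with none. Members named for a shared promoter, a motif, a family, a loss under an alternative or a low value were chosen after their values were seen. Members and lists were chosen with earlier results of these data known. Alternatives were the shorter lists, other promoter widths, start sites, flanks and peak strengths, and leaving out each library.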

Additional observations from a re-analysis of the deposited data

How the results depend on the processing

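Promoter peaks were counted at 36 to 41 of 43 kinesin genes, at 10 or 11 transport kinesins and at 6 mitotic kinesins under the alternatives run. Using 1 start site per gene lost Kif13b and Kifc3, whose regions lie at internal starts. It took the promoter value of Kif22 from 5.82 to 1.98. The stronger 50% of peaks lost Kif7 and Kif27, and 2.5 kb on either side gained Kif19a. That width also took the promoter value of Kif16b from 2.60 to 3.32 and that of Kif26b from 0.719 to 1.81. With 500 bp on either side, the promoter value of Kif13a fell from 2.56 to 1.35 and that of Kif26a from 2.21 to 0.733. The transport median promoter value ran from 2.73 to 3.12 with 1 library left out. The median number of peaks per gene depended more on the settings. At transport kinesins it was 2 with the shorter lists, 3.5 in the gene body only, 11.5 with 50 kb flanks and 3 with promoter peaks left out. At mitotic kinesins it was 2.75 with the stronger 50% of peaks, 2 in the gene body only, 9.5 with 50 kb flanks and 2 with promoter peaks left out. The cause was not tested beyond what each setting removes or adds. No paired analysis was possible because there is only 1 group. With 2 libraries and no stated depth, the absence of a peak is not the absence of open chromatin.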
